A study of Homo sapiens with 4 samples.

Results

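The p53 pathway genes MDM2, MDM4, PPM1D, GADD45A, ZMAT3, RPS27L, FDXR, TP53I3 and AEN were followed in MM.1S, a long-established line of human multiple myeloma cells, exposed to MLN4924. Members were chosen by gene name, as every probe set annotated to 1 of these 9 genes and to no other gene. Of the 9 genes, 8 had such probe sets, 29 in all, out of 54675 probe sets on the array and 19775 genes with a probe set of their own. FDXR was not analysed here. The groups were a DMSO control and MLN4924 at 250 nM for 8 h, for 16 h and for 24 h, and each of the 4 was a single array of total RNA. The control's label gave no culture time, all groups share the 1 cell line, and all comparisons with the control share the same control array. MLN4924 blocks the NEDD8-activating enzyme, so that the cullins of cullin-RING ubiquitin ligases are no longer modified by NEDD8. The comparisons ask how treated cells differed from control cells at each time.

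The transcription factor p53 is kept low by MDM2, a RING ubiquitin ligase that marks it for destruction, and by MDM4, a relative that binds p53 and dampens its activity. When p53 is stabilised, for example after DNA damage, it switches on genes of growth arrest, DNA repair and cell death. It also switches on its own brakes, MDM2 and the phosphatase PPM1D. Being switched on by p53 makes MDM2, PPM1D, GADD45A, ZMAT3, RPS27L, TP53I3 and AEN common readouts of p53 activity, while MDM4 is chiefly a regulator. Arrays measure RNA only, and p53 itself is controlled mostly at the level of its protein.

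Without replicates the groups could not be tested against each other, and a difference here compares 1 array with another. In RNA from whole cultures, fewer cells of a type and less RNA per cell cannot be told apart. Values are the deposited intensities on a linear scale, and differences are on the log2 scale after raising values under 48.4 to that floor. A gene was represented by its brightest probe set and counted as measured when that probe set's geometric mean over the 4 arrays was above 93.9, the median over all probe sets. This held for 12446 genes, among them all 8 that had probe sets, and for 24 of their 29 probe sets. As a stand-in for technical spread, the differences of probe sets of the same gene had a pooled SD of 0.16 at 8 h, 0.19 at 16 h and 0.18 at 24 h (log2, 5719 genes). It does not include the spread between cultures. The medians of the 4 arrays lay between 92.2 and 95.4. All 8 plasma cell and myeloma markers checked were measured, with intensities from 314 to 10030, and their summed intensity ran from 37955 at 8 h to 43275 at 24 h. Markers of other cell types were at most 120 for T and NK cells, 109 for myeloid cells and 94.1 for B cells. The stromal list reached 244, with COL1A1, and the erythroid list 1219, with the HBB probe set, while the red-cell enzyme gene ALAS2 stayed between 75.5 and 98.8.

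The regulatory DNA of 3 of the genes is shown first, because p53 acts on its targets through such sites and because their RNA is described below. RefSeq start-site windows of GRCh38.p14, each from 250 bases before to 50 bases after a transcript's start, were at hand for 8 of the 9 genes, 13 windows in all. GADD45A had none. They were searched for the p53 consensus, a pair of adjacent 10-base motifs without a spacer, allowing 3 mismatches in 20 bases. The consensus reads the same on both strands. At least 1 match was found in windows of MDM2, RPS27L, AEN and FDXR, and 5.20% of all 35116 windows of that length held one. The windows of the inner start of MDM2 held 2 matches, and 0.313% of all windows held 2 or more. Matches are in capitals, written 5′ to 3′ on the gene's strand with 40 bases on either side.

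MDM2, inner start (chr12:68808883-68809020, plus strand): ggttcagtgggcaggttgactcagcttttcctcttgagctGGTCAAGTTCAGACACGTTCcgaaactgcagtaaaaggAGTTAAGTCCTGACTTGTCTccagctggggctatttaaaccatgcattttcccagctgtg
RPS27L (chr15:63157487-63157586, minus strand): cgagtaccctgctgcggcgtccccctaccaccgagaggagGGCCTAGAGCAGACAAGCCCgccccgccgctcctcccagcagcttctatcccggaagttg
AEN (chr15:88621266-88621365, plus strand): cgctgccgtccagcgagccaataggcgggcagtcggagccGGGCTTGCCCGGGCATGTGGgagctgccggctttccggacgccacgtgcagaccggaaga

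In MDM2 the matches began 94 and 56 bases before the start, were 18 bases apart, and fitted the consensus at 18 and 17 of 20 positions. They lie in the first intron, at the promoter known to answer to p53, and the windows of the outer start of the gene held no match. The AEN match began 34 bases before the start of the transcript searched, which lies inside the gene's RefSeq interval, and fitted at 18 positions. That of RPS27L began 69 bases before the start and fitted at 17. No match was found in the windows of MDM4, PPM1D, ZMAT3 or TP53I3, which says only that these letters are not in those windows. A match is a description of sequence and was not tested as a binding site in these cells.

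The p53 pathway genes went both ways, with GADD45A above its control level and AEN below it on the later arrays. At 8 h, 0 of the 8 measured genes were 1.5-fold or more higher and 0 were 1.5-fold or more lower, against 0.731% and 1.12% of all 12446 measured genes. At 16 h, 1 was at least 1.5-fold higher and 0 lower, against 2.24% and 2.73%. At 24 h there were 0 in either direction, against 2.85% and 2.31%. None passed 2-fold at any time, where the shares of all measured genes were 0.129% higher and 0.121% lower at 8 h, 0.386% and 0.289% at 16 h, and 0.514% and 0.193% at 24 h. Above the control stood 4 of the 8 genes at 8 h, 2 at 16 h and 3 at 24 h, against 51.7%, 54.3% and 52.6% of all measured genes. The group's median log2 difference was 0.027, -0.031 and -0.034 at the 3 times, and that of all measured genes 0.0071, 0.026 and 0.016. With quantile normalization 4 of the 8 genes stood above the control at 16 h and at 24 h. When each gene was taken as the median of its probe sets, 6 stood above the control and 1 below it at 24 h (group median 0.019). Among the 6 were MDM2 at 0.00015 and PPM1D at 0.0016, both nearly equal to the control. ZMAT3 was at 0, the value of its probe set 1555609_a_at, which was under the floor on every array. The split of 6 to 1 therefore does not show a shift of the group. The shares of all measured genes past 1.5-fold amount to less than 1 gene in 8, so counts of 0 or 1 past it cannot show whether the group differs from other genes. Counted by probe set, 0 of the 24 measured ones were at least 1.5-fold higher at 8 h and 1 lower, against 0.769% and 1.01% of all 22237 measured probe sets. At 16 h it was 1 higher and 0 lower, against 1.97% and 3.18%, and at 24 h 0 either way, against 2.54% and 2.19%. By the brightest probe set of each gene, GADD45A was the highest of the group at each of the 3 times, and AEN the lowest at 16 and 24 h. Among all measured probe sets, 222487_s_at of RPS27L was higher than GADD45A at 8 h (0.50).

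**Figure D1:**
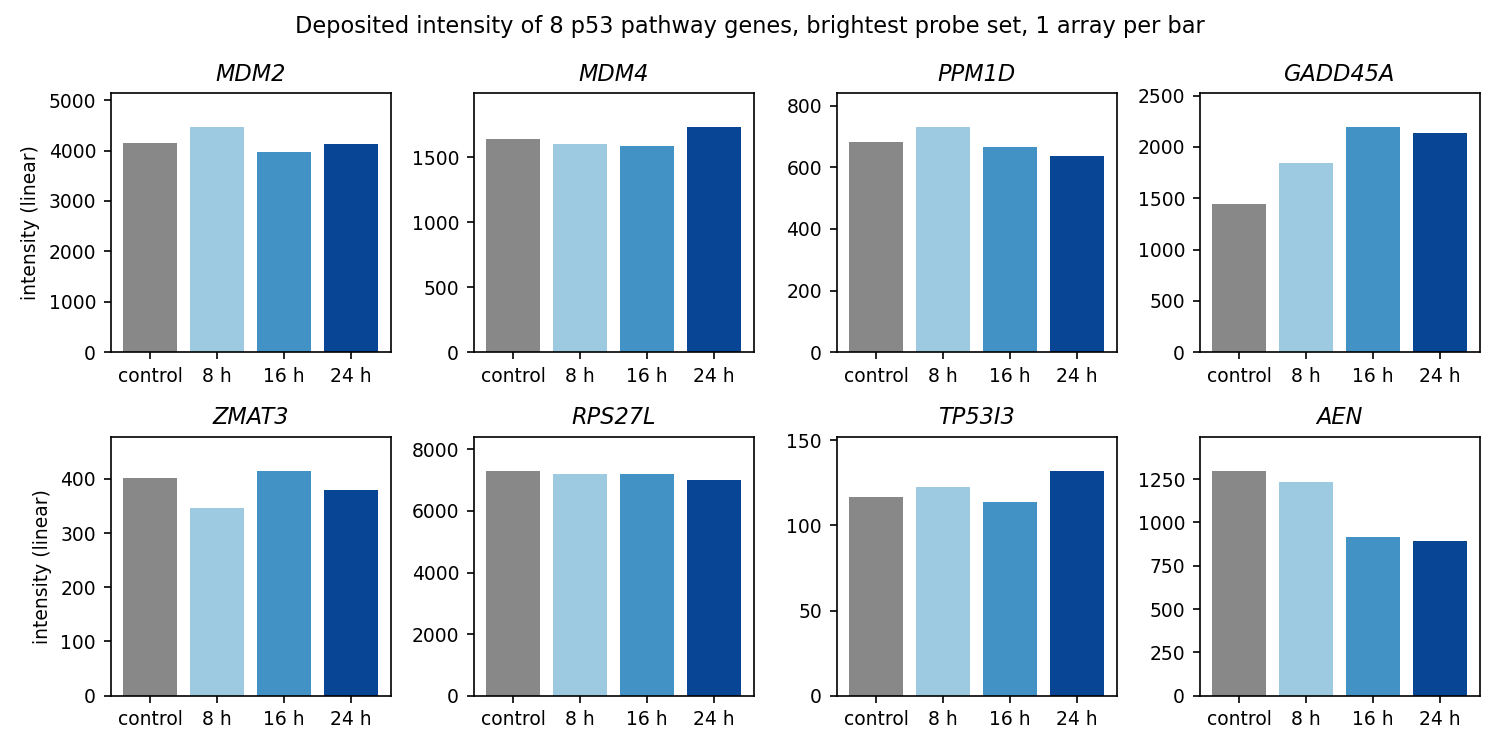
Deposited intensity (linear axis from 0) of the brightest probe set of each of 8 p53 pathway genes on the control, 8 h, 16 h and 24 h arrays, 1 array per bar and no error bars because there were no replicates. GADD45A goes from 1439 to 2191 at 16 h and AEN from 1298 to 891 at 24 h, while the bars of MDM2, MDM4, PPM1D, RPS27L and TP53I3 are of similar height on all arrays.

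MDM2 encodes the ligase that destroys p53 and is the textbook feedback target (chr12:68808172-68850686, GRCh38.p14). Its brightest probe set, 229711_s_at, read 4157 in the control, 4464 after 8 h, 3975 after 16 h and 4138 after 24 h. The highest array was thus 8 h and the lowest 16 h, with a span of 1.12-fold over all 4 arrays, and 81.7% of measured genes had a wider span. The log2 differences from the control were 0.10, -0.065 and -0.0065, each smaller than the spread between probe sets of the same gene. The next brightest, 225160_x_at, read 3134, 3255, 2970 and 2897 in the same order, and 238733_at read 2272, 2312, 2251 and 2002. These 3 probe sets agree in having their highest value at 8 h, and the lowest is at 24 h for the last pair.

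MDM2 had 10 probe sets, more than any other gene of the group, and 9 of them were measured. At 8 h, 7 of the 9 stood above the control, and their differences ran from -0.23 to 0.12. At 16 h, 3 stood above it, with a range from -0.28 to 0.32, and at 24 h 4 did, from -0.36 to 0.11. No MDM2 probe set that counted as measured passed 1.5-fold at any time. The lowest at 24 h was 205386_s_at, with 255 in the control, 217 after 8 h, 210 after 16 h and 198 after 24 h. The highest at 16 h was 205385_at, with 117, 119, 146 and 126. The dimmest, 237891_at, read 59.1, 85.0, 51.2 and 59.4, under the filter on every array, and its difference of 0.53 at 8 h was among values near the floor. Brightness thus ran from near the floor to that of 229711_s_at among probe sets annotated to the same gene, and differences of the bright and of the dim ones did not share a direction. Which transcripts or which of the 2 MDM2 promoters each probe set reads was not determined here.

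MDM4, the relative of MDM2 that binds p53 without being an efficient ligase by itself (chr1:204516406-204558120), was also close to its control. Its brightest probe set, 225740_x_at, read 1638 in the control, 1603 after 8 h, 1583 after 16 h and 1729 after 24 h. The 24 h array was the highest, at 0.078 (log2) above the control. Probe set 236814_at read 1525, 1418, 1470 and 1721, and 225742_at read 151, 164, 146 and 174. All 4 measured MDM4 probe sets stood below the control at 16 h, by -0.057 to -0.050, and all 4 above it at 24 h, by 0.038 to 0.20. A departure at 8 h came from 235162_at, which read 172, 106, 166 and 176. Its log2 difference of -0.69 at 8 h made it the 1 probe set of the group past 1.5-fold lower at that time. The other 3 measured MDM4 probe sets stood between -0.11 and 0.11 at 8 h. The 2 probe sets under the filter read between 62.4 and 114.

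PPM1D encodes the phosphatase WIP1, which switches off p53 and the kinases upstream of it (chr17:60600193-60666280). Probe set 204566_at read 683 in the control, 730 after 8 h, 667 after 16 h and 636 after 24 h. The 8 h array was the highest, as for MDM2, and the 24 h array the lowest. The log2 differences were 0.097, -0.032 and -0.10. The dimmer probe set, 230330_at, read 125, 139, 131 and 134 and stood above the control at each time (0.16, 0.073 and 0.11). The 2 probe sets thus had opposite signs at 16 and 24 h, with all differences within the spread between probe sets.

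**Figure D2:**
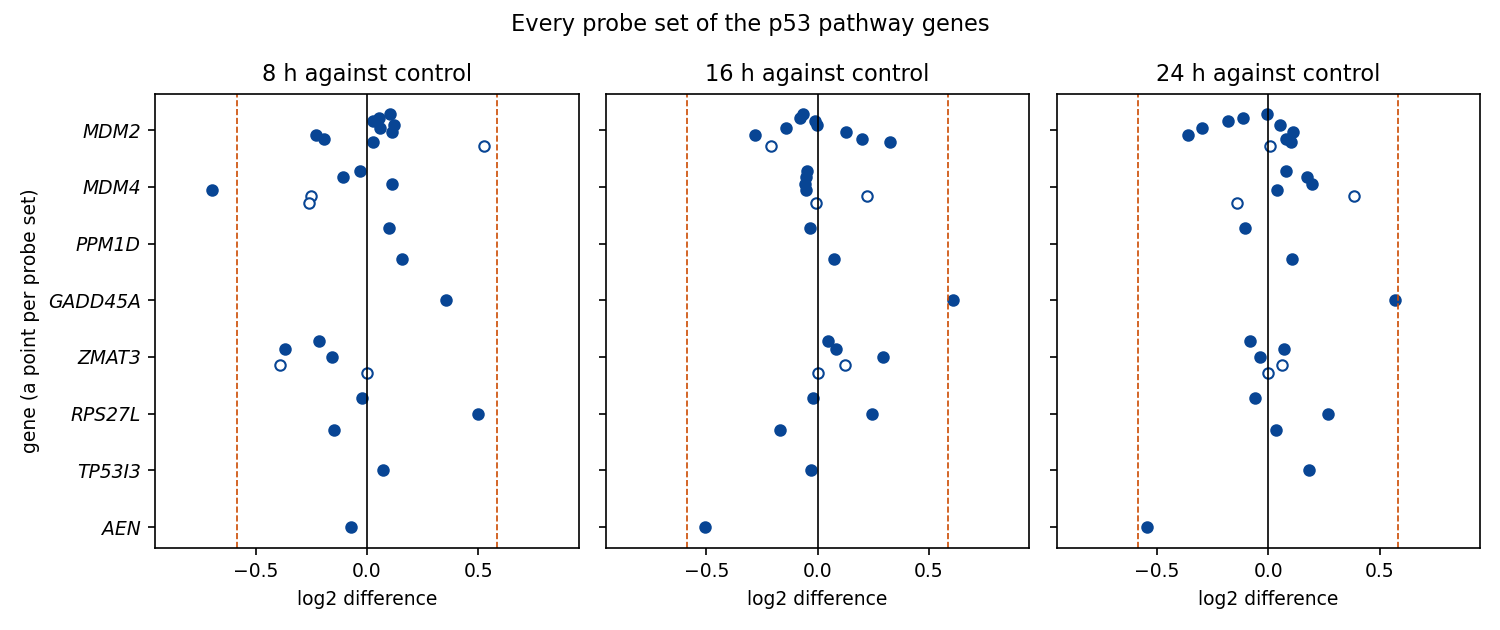
Log2 difference from control (x axis) of each of the 29 probe sets of 8 p53 pathway genes (y axis) at 8, 16 and 24 h. Filled points are the 24 measured probe sets and open points the 5 under the filter, and dashed lines mark 1.5-fold. Filled points lie outside the dashed lines for 1 probe set of MDM4 at 8 h and for GADD45A at 16 h.

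GADD45A, a stress sensor that acts in growth arrest and DNA repair (chr1:67685201-67688334), stood above its control at all times. Its only probe set, 203725_at, read 1439 in the control, 1842 after 8 h, 2191 after 16 h and 2135 after 24 h. Every treated array was above the control, and the 16 and 24 h arrays lay close together. The folds were 1.28, 1.52 and 1.48 (log2 0.36, 0.61 and 0.57), and each exceeded the pooled SD between probe sets. At 8 h 525 measured genes had a higher difference, at 16 h 254 and at 24 h 383, which is 4.22%, 2.04% and 3.08% of them. The values at 16 and 24 h lay near the 1.5-fold line, and with each array centred on its median the fold at 16 h was 1.49. With quantile normalization the log2 differences were 0.64 at 16 h and 0.59 at 24 h, both past the line. Having a single probe set, the gene has no second reading on these arrays.

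GADD45B, a close relative of GADD45A, went the other way. Its brightest probe set read 1409 in the control, 963 after 8 h, 1161 after 16 h and 1007 after 24 h, for log2 differences of -0.55, -0.28 and -0.48. All 4 of its measured probe sets stood below the control at each time. GADD45G, the third of the family, was below the filter, with 20.8 to 34.3. Among 12438 other measured genes, those whose 3 differences from the control lay nearest to those of GADD45A were SNRK (Euclidean distance 0.027), IRS2 (0.049) and GLRX (0.057). SNRK, a kinase gene, read 802, 1016, 1213 and 1207 on the 4 arrays, IRS2, an adaptor of insulin signalling, 619, 803, 954 and 946, and GLRX, a glutaredoxin gene, 2771, 3479, 4075 and 4111. The likeness is over 3 differences that share the control array.

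AEN, an exonuclease of apoptotic cells (chr15:88604683-88632281), was the counterpart at the low end. Its only probe set, 219361_s_at, read 1298 in the control, 1233 after 8 h, 914 after 16 h and 891 after 24 h. The control and 8 h arrays were high and the 2 later arrays low. The differences were -0.074, -0.51 and -0.54 (log2), and from 8 to 16 h alone -0.43. At 16 h 489 measured genes stood lower and at 24 h 355, which is 3.93% and 2.85% of them. With each array centred on its median the 24 h difference was -0.59, just past 1.5-fold lower. Its consensus match is the one printed above, just before the start of the transcript searched. That start lies inside the interval given here and not at its first base. ISG20, a related exonuclease gene, read 1914, 1255, 1164 and 1643, and was 1.5-fold or more lower at 8 and 16 h (-0.61 and -0.72) but not at 24 h (-0.22). The median over its probe sets was -0.53 at 8 h, under that line.

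ZMAT3 encodes an RNA-binding protein that takes part in p53-dependent splicing and RNA decay (chr3:179017223-179072513). Its brightest probe set, 228315_at, read 402 in the control, 346 after 8 h, 415 after 16 h and 380 after 24 h. The 8 h array was the lowest and the 16 h array the highest. Probe set 225725_at read 181, 140, 191 and 190, and 219628_at read 121, 109, 149 and 118. All 3 measured probe sets stood below the control at 8 h (-0.37 to -0.16) and above it at 16 h (0.048 to 0.29). From 8 to 16 h they stood 0.26 to 0.45 higher. At 24 h they lay between -0.081 and 0.073. Probe set 227221_at, under the filter, was also lowest at 8 h and highest at 16 h, with 90.9, 69.4, 99.1 and 94.8, and 1555609_a_at was under the floor on all arrays. No ZMAT3 probe set passed 1.5-fold in any of these comparisons.

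RPS27L, a ribosomal protein paralogue that binds MDM2 (chr15:63148249-63157477), was the brightest of the group on its main probe set. Probe set 218007_s_at read 7306 in the control, 7202 after 8 h, 7209 after 16 h and 7001 after 24 h. This was a span of 1.04-fold, and 98.6% of measured genes had a wider one. Probe set 222487_s_at, at 533, 752, 632 and 642, stood above the control on every treated array, by 0.50, 0.25 and 0.27 (log2). Probe set 238935_at, at 322, 291, 287 and 330, stood below it at 8 and 16 h. The 3 readings therefore do not share a direction at any of the 3 times, and at 8 h they run from -0.15 to 0.50. RPS27, the paralogue of RPS27L, read between 24631 and 25489.

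TP53I3 encodes PIG3, a quinone oxidoreductase linked to oxidative stress and p53-dependent death (chr2:24077433-24084834). Its only probe set, 210609_s_at, read 116 in the control, 123 after 8 h, 114 after 16 h and 132 after 24 h, not far above the filter. The log2 differences were 0.074, -0.030 and 0.18. Detection calls were not used here, so it was not shown that these values lie above background. CRYZ, a related quinone oxidoreductase, read 300, 377, 440 and 360, for differences of 0.33, 0.55 and 0.26.

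**Figure D3:**
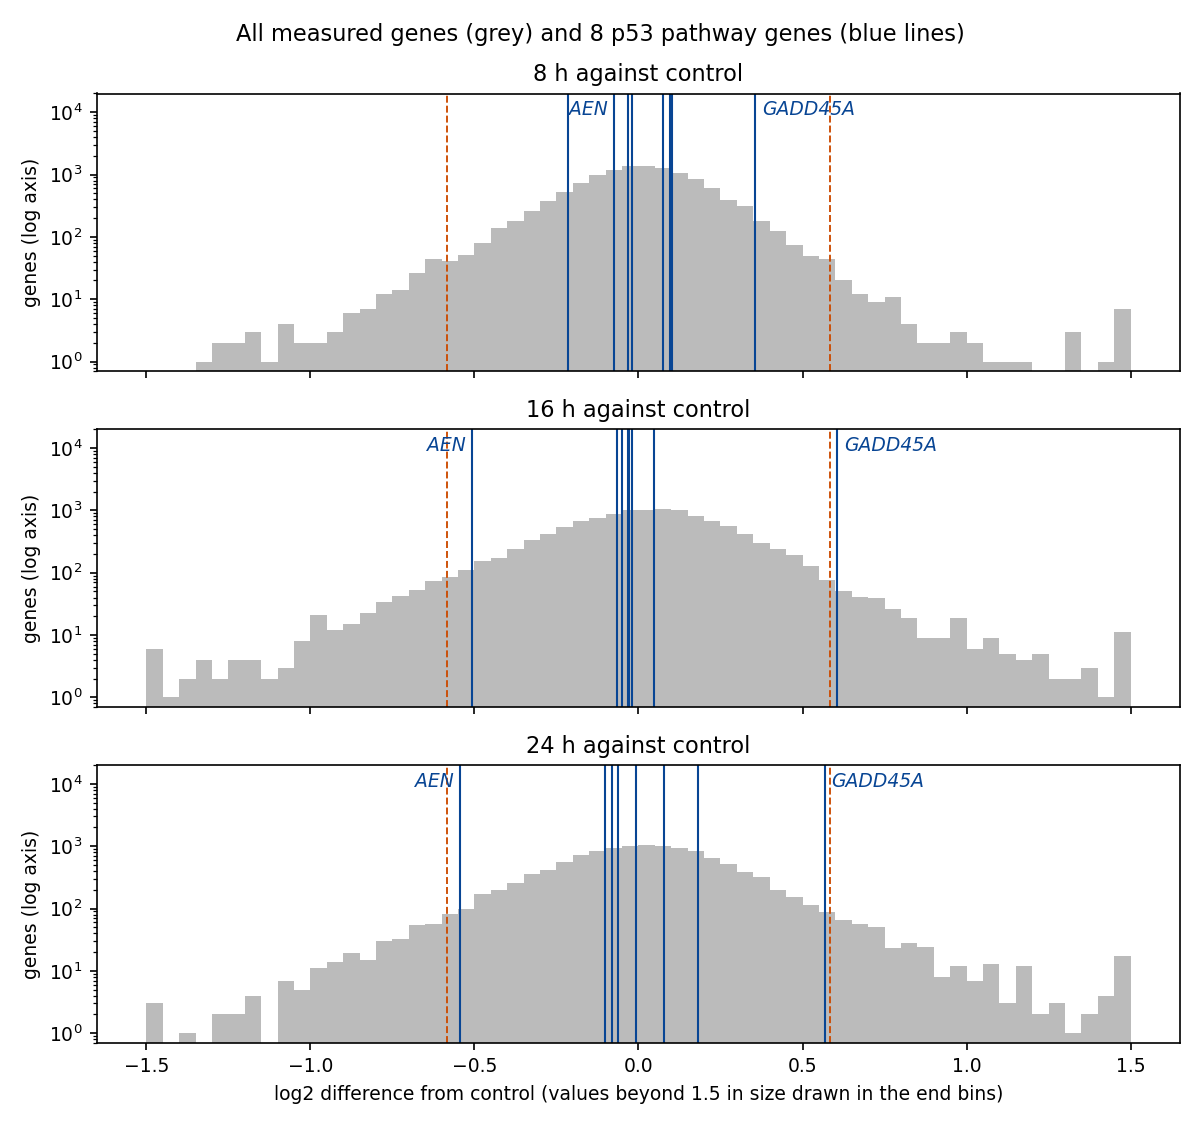
Histograms of the log2 difference from control of all 12446 measured genes (grey, number of genes on a log axis) at 8, 16 and 24 h, with blue lines at the 8 p53 pathway genes and dashed lines at 1.5-fold. Most blue lines lie at the centre, and GADD45A and AEN lie toward opposite ends at 16 and 24 h.

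Between successive times, AEN had the widest step, at -0.43 (log2) from 8 to 16 h, with 4.12% of measured genes lower. From 8 to 16 h, 0 of the 8 genes passed 1.5-fold, against 1.86% of measured genes higher and 1.61% lower. Among the 24 probe sets 1 was at least 1.5-fold higher, again MDM4 235162_at on its return (0.64), and 0 were lower, against 1.72% and 1.91% of all measured probe sets. From 16 to 24 h, 0 genes passed 1.5-fold, against 0.739% higher and 0.0884% lower. The span of these 8 genes on the late step ran from -0.13 for ZMAT3 to 0.21 for TP53I3.

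Other p53 target genes were taken from a list of 48, without CDKN1A and the BCL2 family. Of these 36 were measured, 10 were below the filter, and the other 2 were not analysed here. At 8 h 19 of 36 stood above the control, at 16 h 20 and at 24 h 19, beside 51.7%, 54.3% and 52.6% of all measured genes, and the medians were 0.0017, 0.085 and 0.020 (log2). With a median taken across the probe sets of each gene, 14 stood above it at 16 h and 14 at 24 h. At 8 h 0 passed 1.5-fold in either direction, beside 0.731% of all measured genes higher and 1.12% lower. TNFRSF10D was past it on the low side at that time with each array centred on its median (-0.62) and with quantile normalization (-0.60). At 16 h 2 of the 36 were past 1.5-fold on the high side and 0 on the low side, where all measured genes had 2.24% and 2.73%. At 24 h it was 2 and 1, where all measured genes had 2.85% and 2.31%. Without _x_at and _s_at probe sets, 26 genes were left. Of them 1 at 8 h, 3 at 16 h and 3 at 24 h were past 1.5-fold on the high side. Without the filter the counts were also 1, 3 and 3, of 46 genes. With the median across probe sets 1 was past it on the high side at 16 h and 1 at 24 h. The shares of all genes were not counted under these settings.

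The highest of that list was TP53INP1, a stress-induced nuclear protein gene that also acts in autophagy. Its brightest probe set read 2187 in the control, 2969 after 8 h, 4850 after 16 h and 4875 after 24 h, which is 2.22-fold at 16 h and 2.23-fold at 24 h. Its second measured probe set read 190, 205, 152 and 172, with the opposite sign at the late times, and the median over its probe sets was -0.20 at 16 h and 0.10 at 24 h. PLK2, a polo-like kinase gene, read 141, 147, 272 and 264, which is 1.93-fold at 16 h and 1.87-fold at 24 h. SESN1, a sestrin that restrains mTOR signalling, read 947, 788, 1177 and 1388, so that its 8 h array lay below the control and its late arrays above it. DDB2, a damage sensor of nucleotide excision repair, read 413, 327, 314 and 263 and was the 1 gene at least 1.5-fold lower at 24 h (-0.65). The TRAIL receptor gene TNFRSF10B read 533, 371, 464 and 466, and TNFRSF10D, a decoy receptor, 160, 107, 112 and 119, both lowest at 8 h. Genes of the same textbook programme therefore lay on both sides of the control at each time.

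**Figure D4:**
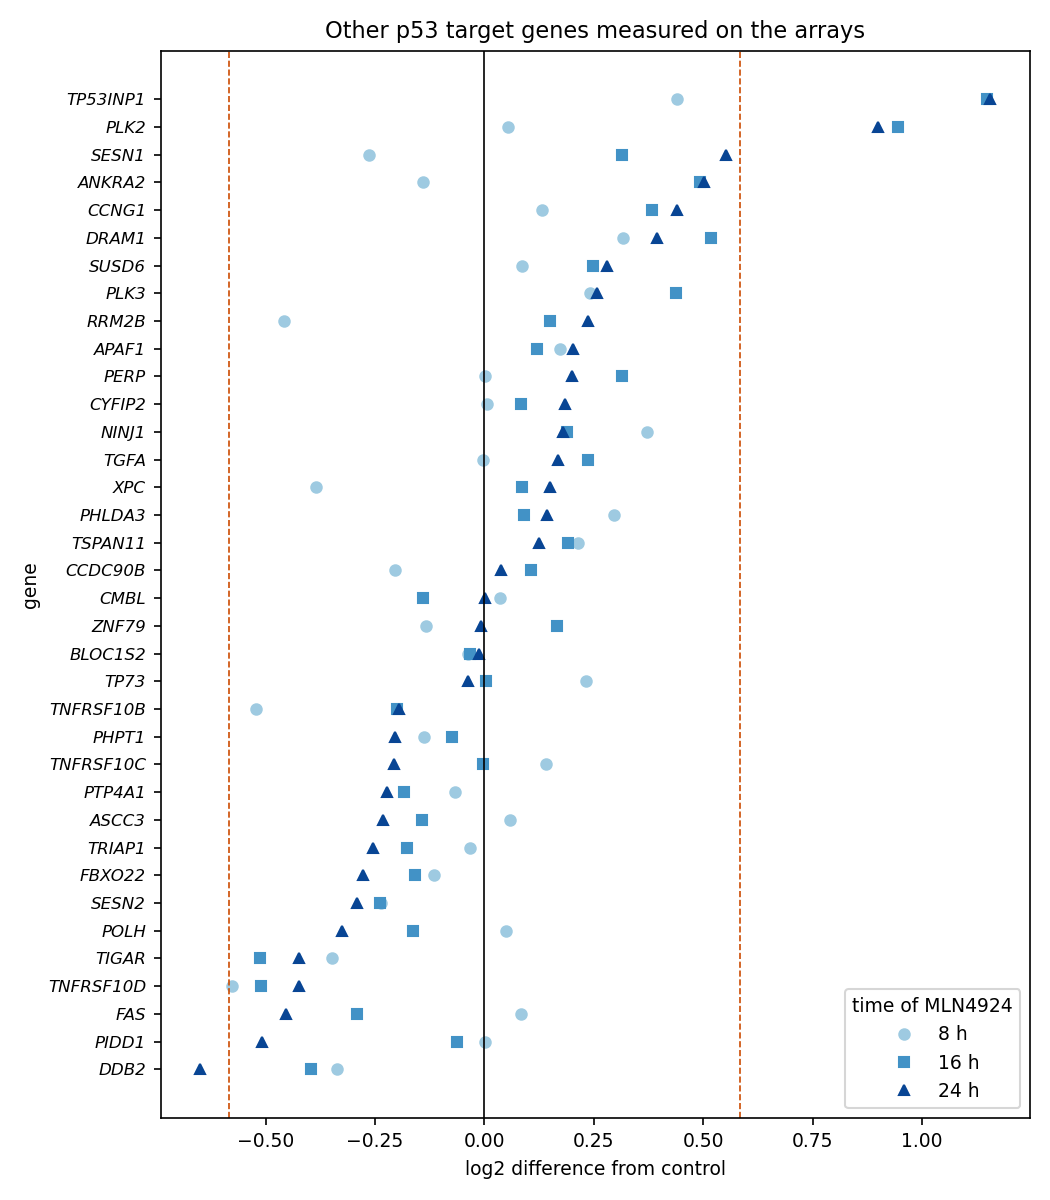
Log2 difference from control (x axis) at 8 h (circles), 16 h (squares) and 24 h (triangles) of the 36 measured genes of the list of other p53 targets (y axis, ordered by the 24 h value), with dashed lines at 1.5-fold. TP53INP1 and PLK2 lie beyond the upper line at 16 and 24 h, DDB2 beyond the lower line at 24 h, and the rest lie between the lines on both sides of 0.

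Of 23 upstream regulators of p53 listed, 21 were measured, and the other 2 were not analysed here. At 8 h 11 of 21 stood above the control, and 11 did so at 16 h and at 24 h, with medians of 0.0059, 0.014 and 0.016. These counts stand beside 51.7%, 54.3% and 52.6% of all measured genes above 0, and with each array centred on its median the count at 8 h was 6. Past 1.5-fold were 0 of the 21 at each time, where all measured genes had 0.731% higher and 1.12% lower at 8 h, 2.24% and 2.73% at 16 h, and 2.85% and 2.31% at 24 h. The damage kinase gene ATM read 485, 487, 490 and 692, standing apart only at 24 h (0.51), and its 4 other measured probe sets lay between 0.039 and 0.091 there. ATR, the kinase of replication stress, read 1600, 1398, 1122 and 1341, lowest at 16 h (-0.51). CHEK2, a kinase that phosphorylates p53, read 535, 528, 428 and 380. CDKN2A, whose ARF product holds back MDM2, read 1331, 1491, 999 and 915, and of 2 further measured probe sets 1 pointed the other way at 24 h. With each array centred on its median CDKN2A stood at -0.59 at 24 h, past 1.5-fold lower. HIPK2, another p53 kinase, stood above the control at each time (0.35, 0.48 and 0.40), and TP53BP1, a scaffold of repair at DNA breaks, at 0.11, 0.41 and 0.39.

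Among ribosomal proteins that bind MDM2, RPL11, RPS3, RPS7 and RPS14 were measured and RPL5, RPL23 and RPL26 were not analysed here. RPL11 read 16699 in the control, 16473 after 8 h, 17197 after 16 h and 17325 after 24 h. The 4 genes stood between -0.096 and -0.0056 at 8 h, between -0.053 and 0.042 at 16 h and between -0.035 and 0.053 at 24 h. Of 9 paralogues and partners of the group, 8 were measured, with 3, 3 and 4 above the control at the 3 times. The shares of all measured genes above it were 51.7%, 54.3% and 52.6%. ISG20 was the 1 of the 8 past 1.5-fold, on the low side at 8 and 16 h, where all measured genes had 1.12% and 2.73%. With each array centred on its median, GADD45B was past it as well at 8 h (-0.59), and with quantile normalization or the median of the probe sets 0 of the 8 were past it at 8 h. Of the relatives of PPM1D, PPM1A stood at 0.11, 0.11 and 0.19, PPM1B at 0.010, 0.16 and 0.27, and PPM1G at -0.018, -0.18 and -0.34. The other measured probe sets of PPM1A ran from -0.030 to 0.43 at 16 h. The other measured probe set of PPM1B stood at -0.25 at 8 h and above the control at 16 and 24 h.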

How the data were processed

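Total RNA of MM.1S cells was extracted with Trizol, turned into biotinylated cRNA and measured on Affymetrix arrays, per the labels' protocols. The values deposited by the authors are intensities on a linear scale. How probes were summarised and arrays normalized is not given in the sources used here. The array medians differed by at most 0.048 (log2), and no normalization was added. Probe sets were named from the array's annotation. Of 54675, 41097 had 1 gene, 1801 with several genes were left out, and the other 11777 are unnamed here. RefSeq (GRCh38.p14) held the Entrez identifier of 41043 of the probe sets with 1 gene.

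Intensities under the 25th percentile of all values (48.4) were raised to it before log2 was taken. The probe set of highest mean stood for a gene, which counted as measured above the median mean. Single arrays allow no test, so genes at least 1.5-fold or 2-fold apart were counted. The number of arrays limits the precision. Members, lists and rules were chosen with earlier results of these data known. Named genes were all members, the 6 genes of each other list with the largest difference from control at any time among measured ones, and the 3 genes most like the member with the largest difference. GADD45G, RPS27, COL1A1, HBB, ALAS2 and genes not analysed here were named outside that rule after their values were seen. Alternatives changed the floor, the normalization, the probe set and the filter. Python 3.11.15, numpy 2.4.6, pandas 2.3.3 and matplotlib 3.10.9 were used.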

Additional observations from a re-analysis of the deposited data

How the results depend on the processing

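With 8 alternatives, the 183 differences of single p53 pathway genes each moved by less than the pooled SD between probe sets. Changes of the floor left them identical, because the brightest probe sets of these genes lay above it on every array. Changes of the filter only decide whether a gene counts, so they could not move a difference either. The number of the 8 genes past 1.5-fold changed in 3 cases. With each array centred on its median it was 0 at 16 h and 1 at 24 h, and with quantile normalization it was 1 at 24 h. The gene at 24 h was AEN with centring and GADD45A with quantile normalization. In the other alternatives the counts at 8, 16 and 24 h and between times were as reported, with 6 genes left once _x_at and _s_at probe sets were dropped and 7 with the filter at the 75th percentile. The 2 genes lost without _x_at and _s_at were AEN and TP53I3. GADD45A ran from 0.57 to 0.64 at 16 h over the 8 alternatives, and AEN from -0.59 to -0.54 at 24 h over the 7 that gave it a value. As each of the 2 genes has 1 probe set, only the changes of normalization could alter these values. No paired analysis was possible because each group has 1 array. Low intensities limit TP53I3 and the dim probe sets of MDM2, MDM4 and ZMAT3, whose values lie near the filter.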
